A study of Mus musculus with 12 samples.

Results

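Gonadal white fat of lean male mice was compared between animals lacking the microRNA gene Mir10a (KO) and wild-type animals (WT). The comparison rests on 6 of the 12 mRNA libraries of the study, 3 from KO and 3 from WT mice on a normal chow diet (NCD), and covers all genes measured in them. All mice were male and are labelled C57BL/6, with no substrain given, and were kept on their diet for 16 weeks from the age of 8 weeks. The other 6 libraries come from KO and WT mice on a high-fat diet (HFD), 3 each, and are used here only where a difference seen on chow is looked up in them. The study's design text calls the libraries of a group biological replicates. How the Mir10a allele was made, and whether the WT mice were littermates, is not given in the sources used here.

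MicroRNAs are short RNAs that guide the silencing machinery to messenger RNAs, mainly by pairing of the seed, bases 2 to 8 of the microRNA, with a matching stretch of the 3′ untranslated region (3′ UTR). Loss of a microRNA is therefore looked for as higher levels of messenger RNAs that carry such sites. Mir10a lies within the HoxB cluster of homeobox genes and is known for its part in limiting inflammatory signalling in blood vessels and immune cells. Gonadal white fat stores triglyceride and secretes hormones such as leptin and adiponectin, and besides adipocytes it holds progenitors, vessels, mesothelium and immune cells.

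The mature microRNAs are shown because the closest relative of the deleted one has the same seed. The sequences are from RefSeq on GRCm38.p6, with the seed in capitals. The mature miR-10a-5p is encoded at chr11:96317186-96317208 on the plus strand, and miR-10b-5p at chr2:74726074-74726096 on the plus strand.
miR-10a-5p: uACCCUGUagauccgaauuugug
miR-10b-5p: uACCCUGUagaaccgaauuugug
The pair differed at 1 base, U12A counted from the 5′ end, with the miR-10a base first.

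Levels are given as FPKM, fragments scaled by transcript length and by the fragments mapped in the library, in the order WT 1, 2 and 4 and then KO 2, 3 and 4, the numbers in the column headers. Differences are KO minus WT on the scale of log2(FPKM + 1), tested with limma, and a gene is called when its p, adjusted by the Benjamini-Hochberg method over the 14340 tested genes, is below 0.05. The pseudocount of 1 FPKM makes these log2 differences understate the ratio of low genes.

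The libraries did not separate by genotype on their first principal component. That component of the 6 chow libraries held 45.03% of their variance and set WT 2 (20.3), WT 4 (12.3) and KO 2 (27.2) against WT 1 (-21.1), KO 3 (-18.8) and KO 4 (-19.9). Markers of ciliated epithelium summed to 97.5, 81.7 and 122 FPKM in the first 3 of these and to 40.9, 30.2 and 31.7 FPKM in the other 3. Foxj1, the factor that drives the building of motile cilia, was at 0.592, 17.4 and 11.1 FPKM in WT and at 25.3, 1.18 and 1.49 FPKM in KO. The summed epididymal epithelium list was at 12.0, 8.08 and 12.2 FPKM in WT 2, WT 4 and KO 2. It was at 0.747, 0.963 and 3.25 FPKM in WT 1, KO 3 and KO 4. Of its 10 members 5 stayed under 0.1 FPKM in every WT library on chow, and 5 in every KO library. The summed sperm list was at 2.23, 9.73 and 5.37 FPKM in WT 2, WT 4 and KO 2. In WT 1, KO 3 and KO 4 it was at 0.0457, 0.548 and 0.0971 FPKM. Wfdc2, a secreted epithelial protein on the epididymal list, was at 0.425, 6.64 and 4.41 FPKM in WT and 5.22, 0.426 and 0.551 FPKM in KO. WT 2, WT 4 and KO 2, called ciliated here, are left out where a result rests on them. Summed FPKM ran from 420126 to 455434, genes at 1 FPKM or more from 12859 to 13667, and the mitochondrial share of FPKM from 14.6% to 15.5% in WT and from 15.2% to 17.5% in KO. Defining adipocyte genes were high in every library, with Fabp4, the fatty acid binding protein of adipocytes, between 13729 and 16911 FPKM.

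**Figure D1:**
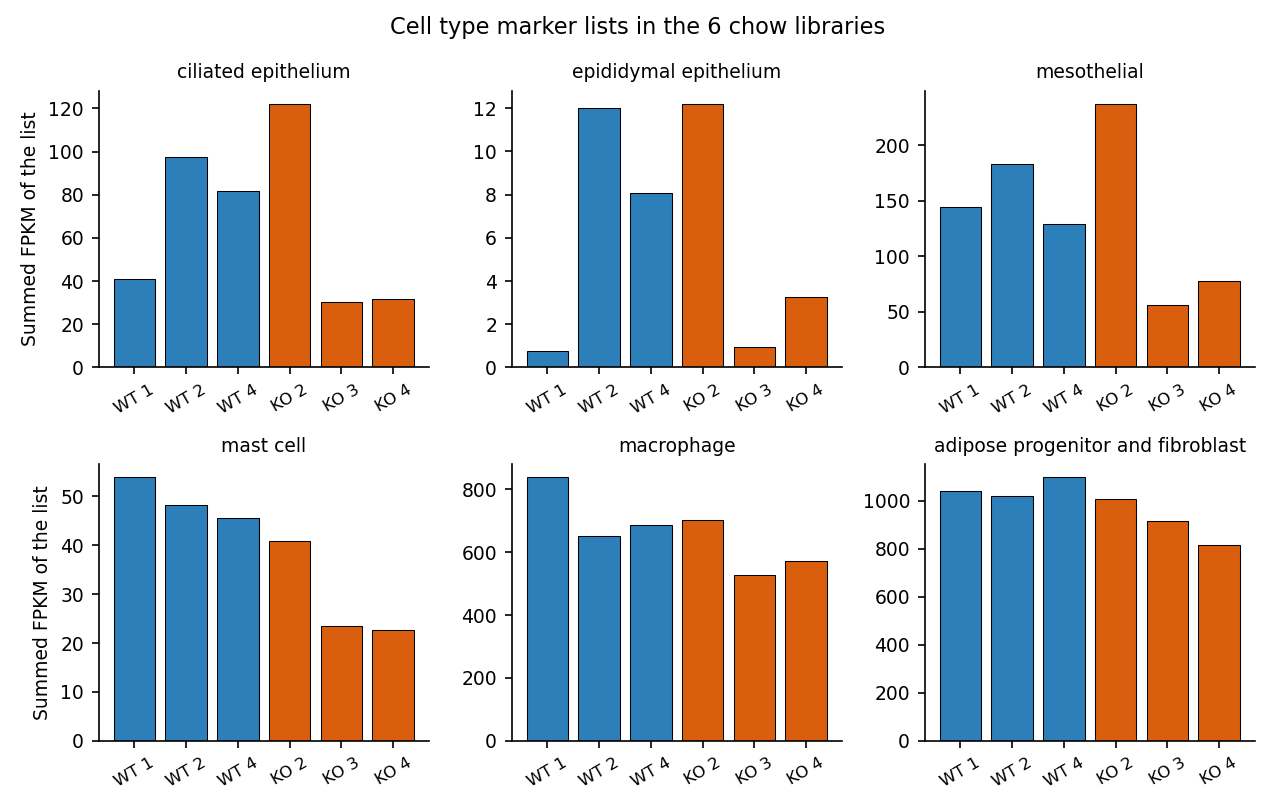
Summed FPKM of 6 cell type marker lists in the 6 chow libraries, with WT in blue and KO in orange and 1 bar per library. The ciliated list is highest in KO 2 at 122 FPKM and the mast cell list is lower in every KO library than in every WT library.

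The deposited values do not show the deletion itself. Mir10a was listed at 0.425, 0.0615 and 0.265 FPKM in WT and at 0.276, 0.0813 and 0.133 FPKM in KO, so the groups overlap. Libraries of polyadenylated RNA do not measure a mature microRNA, so this row checks neither the genotype nor its labels. The HoxB genes around Mir10a gave no called difference. The table lists 12 members of the cluster, of which 10 were tested, none was called, and their median difference was -0.11, against -0.05 over all tested genes. Without the ciliated libraries that median was 0.03. Hoxb4, the homeobox gene next to Mir10a, was at 3.59, 4.34 and 5.05 FPKM in WT and 6.4, 5.26 and 4.04 FPKM in KO. Hoxb3, which overlaps the locus, was at 2.55, 4.14 and 3.54 FPKM in WT and 4.26, 3 and 2.22 FPKM in KO. Both overlap between genotypes.

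Few genes differed between genotypes on chow at this threshold. Of 14340 tested genes 7 were called (0.0488%), 6 higher in KO (0.0418%) and 1 lower (0.00697%). The 6 that rose were Nnt, AA465934, Entpd4, its copy Entpd4b, Xaf1 and Fndc8, and the 1 that fell was Slfn8. At an unadjusted p below 0.05 there were 731 genes (5.1%), 106 higher (0.739%) and 625 lower (4.36%). That split depended on the scale: with libraries centred on their medians it was 295 higher and 276 lower, and after quantile normalization 347 higher and 270 lower, while the median difference over all genes moved from -0.05 to 0.01 under both. As deposited 10199 of the 14340 genes lay below 0.

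The count of called genes depended on the libraries. Without the ciliated libraries, which leaves 1 WT and 2 KO libraries on chow, 4 genes were called, Nnt and AA465934 among them, and Entpd4, Entpd4b, Xaf1, Slfn8 and Fndc8 lost their call. The log2 differences of these 5 were 0.82, 0.82, 1.53, -1.45 and 0.90 there, against 0.83, 0.83, 1.58, -1.35 and 0.89 in all 6 chow libraries. Without KO 2 alone 15 genes were called and without KO 3 alone 13, against 6 or 7 without each of the other 4 chow libraries. With the mean log2(FPKM + 1) of the ciliated markers as a covariate all 7 stayed called.

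**Figure D2:**
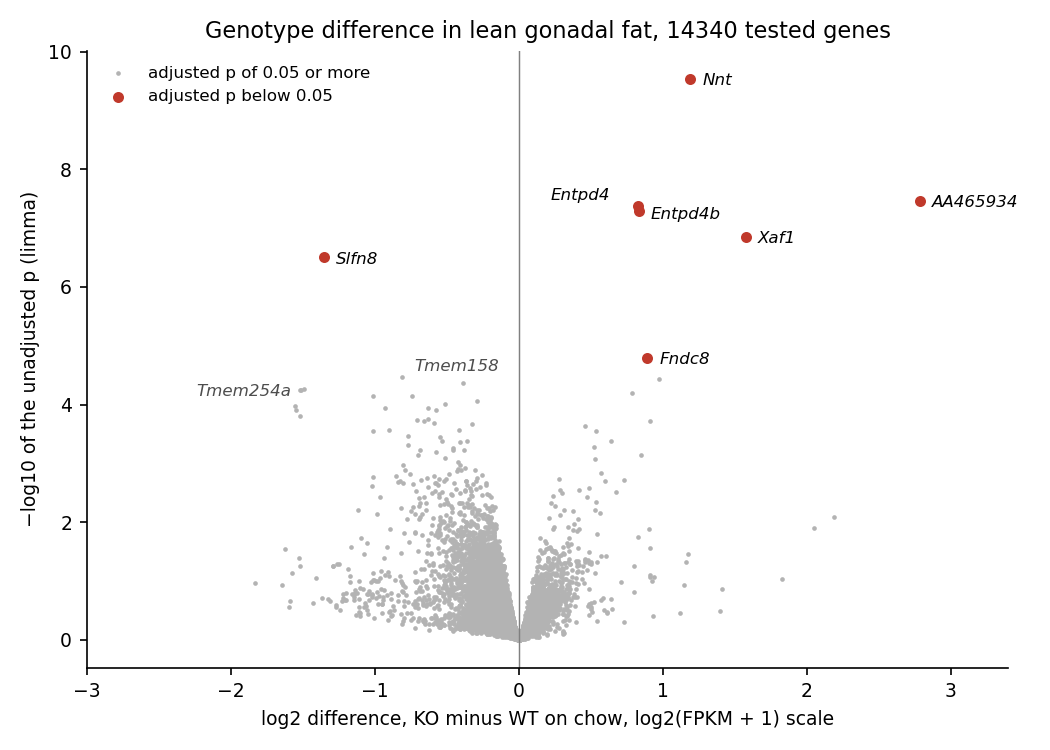
Log2 difference between KO and WT on chow (x axis, log2(FPKM + 1) scale) against −log10 of the unadjusted p (y axis) for each tested gene, with called genes in red. The 7 called genes stand above the rest, 6 to the right of 0 and Slfn8 to the left.

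Nnt encodes the nicotinamide nucleotide transhydrogenase, an inner mitochondrial membrane enzyme that makes NADPH, and is known to differ between C57BL/6 substrains. It lies at chr13:119335527-119409257. It was at 7.10, 6.83 and 6.51 FPKM in WT and at 17.1, 16.7 and 16.5 FPKM in KO. The means were 6.81 ± 0.292 and 16.8 ± 0.308 FPKM (SD, n = 3), 2.46-fold higher in KO, with a log2 difference of 1.19 ± 0.05 (SE) and an adjusted p of 4.16e-06 in limma. The KO libraries lay close together and far above all WT libraries. Other enzymes that make NADPH were not called. Of 14 tested members of that list Nnt alone passed, and Me1, the cytosolic malic enzyme, was at 260, 240 and 172 FPKM in WT and 161, 165 and 199 FPKM in KO. Neighbours of Nnt within 1 Mb were not called. Fgf10, a growth factor of preadipocytes, was at 19.9, 19.0 and 18.1 FPKM in WT and 13.7, 15.8 and 12.98 FPKM in KO, without overlap but with an adjusted p of 0.858 in limma. Paip1, at 13.5, 14.4 and 14.9 FPKM in WT, overlapped with KO at 15.02, 14.1 and 12.4 FPKM.

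The other called genes outside chromosome 11 were copies of one another on chromosome 14. Entpd4, a nucleoside diphosphatase of the Golgi and lysosome, lies at chr14:69337151-69366742 and Entpd4b at chr14:69555401-69584940. Entpd4 was at 6.03, 5.99 and 6.36 FPKM in WT and at 12.3, 11.3 and 11.5 FPKM in KO. Its means were 6.13 ± 0.203 and 11.7 ± 0.538 FPKM (SD, n = 3), 1.91-fold higher in KO, with an adjusted p of 0.000184 in limma. Entpd4b gave nearly the same values, with means of 6.29 and 12.0 FPKM and the same adjusted p. In the annotation the compared transcripts of Entpd4 and Entpd4b are identical over 3589 of 3589 bases, so reads cannot be assigned to either, and both rows count as 1 observation. The first 60 coding bases, from GENCODE M21 transcripts, are shown for the copies of this gene and of Tmem254, described next.
Entpd4: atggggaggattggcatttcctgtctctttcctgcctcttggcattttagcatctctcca
Entpd4b: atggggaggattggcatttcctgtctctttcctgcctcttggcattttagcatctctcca
Tmem254a: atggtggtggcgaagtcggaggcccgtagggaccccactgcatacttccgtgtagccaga
Tmem254b: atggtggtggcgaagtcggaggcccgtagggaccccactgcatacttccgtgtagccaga
Tmem254c: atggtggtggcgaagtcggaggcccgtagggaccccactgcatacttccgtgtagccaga
Gm16867, a predicted gene whose span runs into that of Entpd4, was at 0.0668, 0.0337 and 0.0824 FPKM in WT and 1.02, 0.550 and 0.966 FPKM in KO, just outside the threshold (adjusted p = 0.0646 in limma). On either diet it reached 1 FPKM in KO libraries alone.

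A further group of copies on chromosome 14 was lower in KO and narrowly missed the threshold. Tmem254a, a transmembrane protein gene at chr14:25923298-25927672, was at 46.8, 45.2 and 47.3 FPKM in WT and at 15.7, 15.8 and 16.2 FPKM in KO. The means of 46.5 ± 1.09 and 15.9 ± 0.248 FPKM (SD, n = 3) differ 2.92-fold, far more than the spread within either group, and the adjusted p was 0.0635 in limma. Fitted on the 6 chow libraries alone the adjusted p was 0.00031. The fit to 12 libraries shares its spread with the HFD libraries, where Tmem254a was at 83.8, 83.1 and 64.8 FPKM in WT and 34.5, 42.4 and 18.4 FPKM in KO, again lower without overlap and called (adjusted p = 0.0322 in limma). The compared transcripts of Tmem254a and Tmem254b are identical over 1108 of 1108 bases and share all 1066 bases of that of Tmem254c, so these rows cannot be told apart either. Tmem254b was at 71.3, 67.7 and 71.2 FPKM in WT and 23.6, 23.9 and 24.2 FPKM in KO. Plac9a, Plac9b and Gm9780, interleaved with them, were also lower without overlap on chow. Plac9b was at 88.7, 83.9 and 110 FPKM in WT and 36.2, 31.2 and 27.4 FPKM in KO on chow, and at 60.4 to 72.7 FPKM in WT and 23.9 to 58.1 FPKM in KO on HFD. On HFD Plac9a overlapped between genotypes, and Plac9a, Plac9b and Gm9780 were not called (adjusted p = 0.171, 0.151 and 0.133 in limma). The RefSeq promoter windows of Plac9b and Gm9780 are identical over 300 of 300 bases. The genes between and beside these copies overlapped between genotypes. Anxa11, an annexin, was at 18.9, 18.2 and 19.9 FPKM in WT and 18.9, 15.4 and 17.2 FPKM in KO. These windows on chromosomes 13 and 14 were chosen after the values were seen.

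The remaining 4 called genes lie on chromosome 11, which also carries Mir10a. Xaf1, an interferon-inducible gene whose protein counteracts an inhibitor of apoptosis, lies at chr11:72301461-72313733, 24 Mb before Mir10a. It was at 6.56, 5.95 and 6.46 FPKM in WT and 20.8, 22.7 and 19.1 FPKM in KO. The means were 6.32 ± 0.323 and 20.9 ± 1.76 FPKM (SD, n = 3), 3.30-fold higher in KO, with an adjusted p of 0.000405 in limma. It was the sole member called among 26 interferon-stimulated genes. Irf7, a master factor of the interferon response, was at 10.6, 11.2 and 12.2 FPKM in WT and 13.1, 16.0 and 10.02 FPKM in KO, and Ifit1, a sensor of viral RNA, at 2.47, 2.27 and 2.11 FPKM in WT and 3.22, 3.56 and 1.84 FPKM in KO. The groups overlap for both. The list's median difference was 0.13 and 20 of 26 members lay above 0, but without the ciliated libraries the median was -0.03.

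AA465934, a long non-coding RNA at chr11:83291699-83294637, had the greatest called difference on the log2(FPKM + 1) scale. It was at 0.759, 1.31 and 1.62 FPKM in WT and at 16.3, 17.1 and 10.2 FPKM in KO. The means of 1.23 ± 0.435 and 14.5 ± 3.77 FPKM (SD, n = 3) differ 11.8-fold, with an adjusted p of 0.000184 in limma. Near it lies Slfn8, at chr11:83002125-83020810, of the Schlafen family that is expressed in immune cells. Slfn8 was at 2.0, 1.78 and 1.60 FPKM in WT and at 0.0846, 0.0752 and 0.114 FPKM in KO, 19.6-fold higher in WT, with an adjusted p of 0.000752 in limma. KO libraries were near 0 and none approached the WT range. Fndc8, a gene for a fibronectin type III domain protein at chr11:82892145-82900737, was at 0.246, 0.163 and 0.135 FPKM in WT and 0.939, 1.5 and 1.17 FPKM in KO (adjusted p = 0.0331 in limma). It is a low gene near the threshold and lost its call in 8 of 16 alternative settings. Fndc8 passed the filter for testing, 1 FPKM or more in at least 3 of the 12 libraries, through KO libraries alone. Its highest WT library on either diet was at 0.410 FPKM. Slfn8 passed that filter through WT libraries alone, with its highest KO library at 0.862 FPKM. Both were therefore tested only because of the group in which they are high.

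Between Fndc8 and AA465934 no other tested gene was called, and Slfn8 was the sole called gene among 6 tested Schlafen genes. Of these 6, 2 were lower in KO without overlap, as were 7.96% of all tested genes. Slfn5, the most abundant of them, was at 30.3, 30.2 and 26.7 FPKM in WT and 29.9, 26.9 and 34.5 FPKM in KO. Slfn9, a close paralogue of Slfn8, was at 0.389, 0.359 and 0.283 FPKM in WT and 0.310, 0.382 and 0.348 FPKM in KO. Both overlap. Slfn2, the other gene lower without overlap, was at 7.33, 6.24 and 6.63 FPKM in WT and 6.07, 5.83 and 5.19 FPKM in KO (adjusted p = 0.983 in limma). Because the family's members resemble each other, the assignment of reads between them is uncertain. Unc45b, a chaperone of myosin in the same interval, was at 7.43, 6.81 and 7.71 FPKM in WT and 4.26, 4.20 and 3.54 FPKM in KO, lower without overlap and not called (adjusted p = 0.369 in limma).

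Differences were denser on this stretch of chromosome 11. Within 25 Mb of Mir10a 62 of 681 tested genes (9.10%) had an unadjusted p below 0.05, against 4.34% on the rest of chromosome 11 and 4.92% on all other chromosomes. The median difference was -0.06, -0.06 and -0.05 in these 3 sets of genes. All 4 called genes of the chromosome were inside this window and none within 10 Mb, where the share at that unadjusted p was 11%. Xaf1, 24 Mb away, lies just inside the 25 Mb. By whole autosome that share was 7.71% on chromosome 14 and 7.07% on chromosome 11. On the other autosomes it ran from 3.73% on chromosome 2 to 6.36% on chromosome 1. Of the next genes in order of p, Mrps23, a protein of the mitochondrial ribosome 8.11 Mb before Mir10a, was at 24.5, 22.8 and 22.4 FPKM in WT and 17.1, 18.7 and 16.9 FPKM in KO. Gm525, 7.23 Mb before it, was at 0.718, 0.654 and 0.913 FPKM in WT and 2.57, 2.14 and 2.67 FPKM in KO. Neither was called, at adjusted p-values of 0.0612 and 0.0589 in limma. Gm525 reached 1 FPKM in KO libraries alone, with its highest WT library on either diet at 0.953 FPKM. It was therefore tested only because of the group in which it is high. The 2 genotypes can differ in alleles linked to Mir10a and in background strain as well as in miR-10a, and in this design these cannot be told apart.

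**Figure D3:**
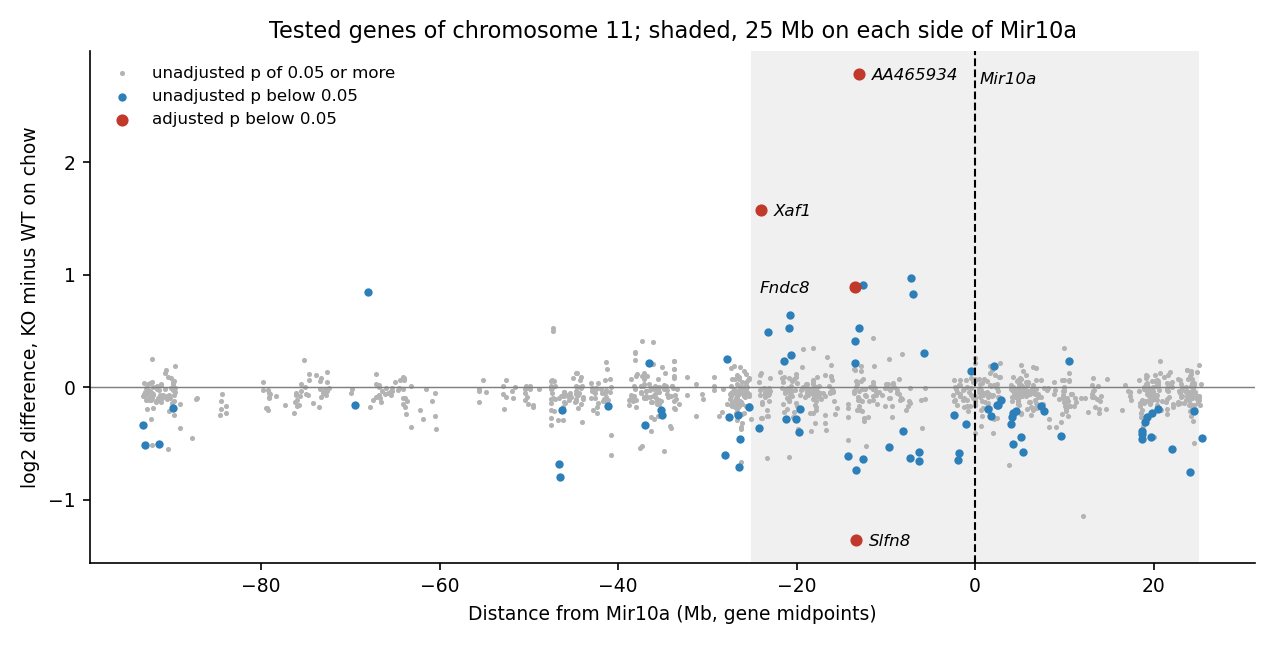
Log2 difference between KO and WT on chow (y axis) of the tested genes of chromosome 11 by distance from Mir10a in Mb (x axis), with called genes in red and genes at an unadjusted p below 0.05 in blue. The 4 called genes lie from 24 to 13 Mb before Mir10a, inside the shaded 25 Mb.

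The 7 called genes were looked up in the HFD libraries, which are other mice. All 7 had the same sign there and 6 were called, where 0.802% of tested genes were called on HFD. The fit shares the spread of a gene between the diets, so the calls on HFD are not independent of those on chow. The 7 include Entpd4 and Entpd4b, whose rows cannot be told apart. They also include Fndc8 and Slfn8, tested only because of the group in which they are high. Nnt was at 4.25, 3.97 and 4.15 FPKM in WT and 10.1, 10.5 and 9.85 FPKM in KO on HFD, 2.47-fold higher in KO, next to 2.46-fold on chow. Xaf1 was at 6.69, 7.29 and 6.68 FPKM in WT and 16.1, 22.0 and 25 FPKM in KO on HFD. Slfn8 was at 3.42, 3.92 and 4.12 FPKM in WT and 0.622, 0.363 and 0.862 FPKM in KO on HFD. Fndc8 missed the threshold on HFD at an adjusted p of 0.0589 in limma. The interaction, the test of whether the genotype difference itself differs between the diets, was called for 39 of 14340 genes (0.272%) and for none of the 7, with adjusted p-values from 0.309 to 0.931 in limma, which does not show that the genotype difference is equal on both diets.

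**Figure D4:**
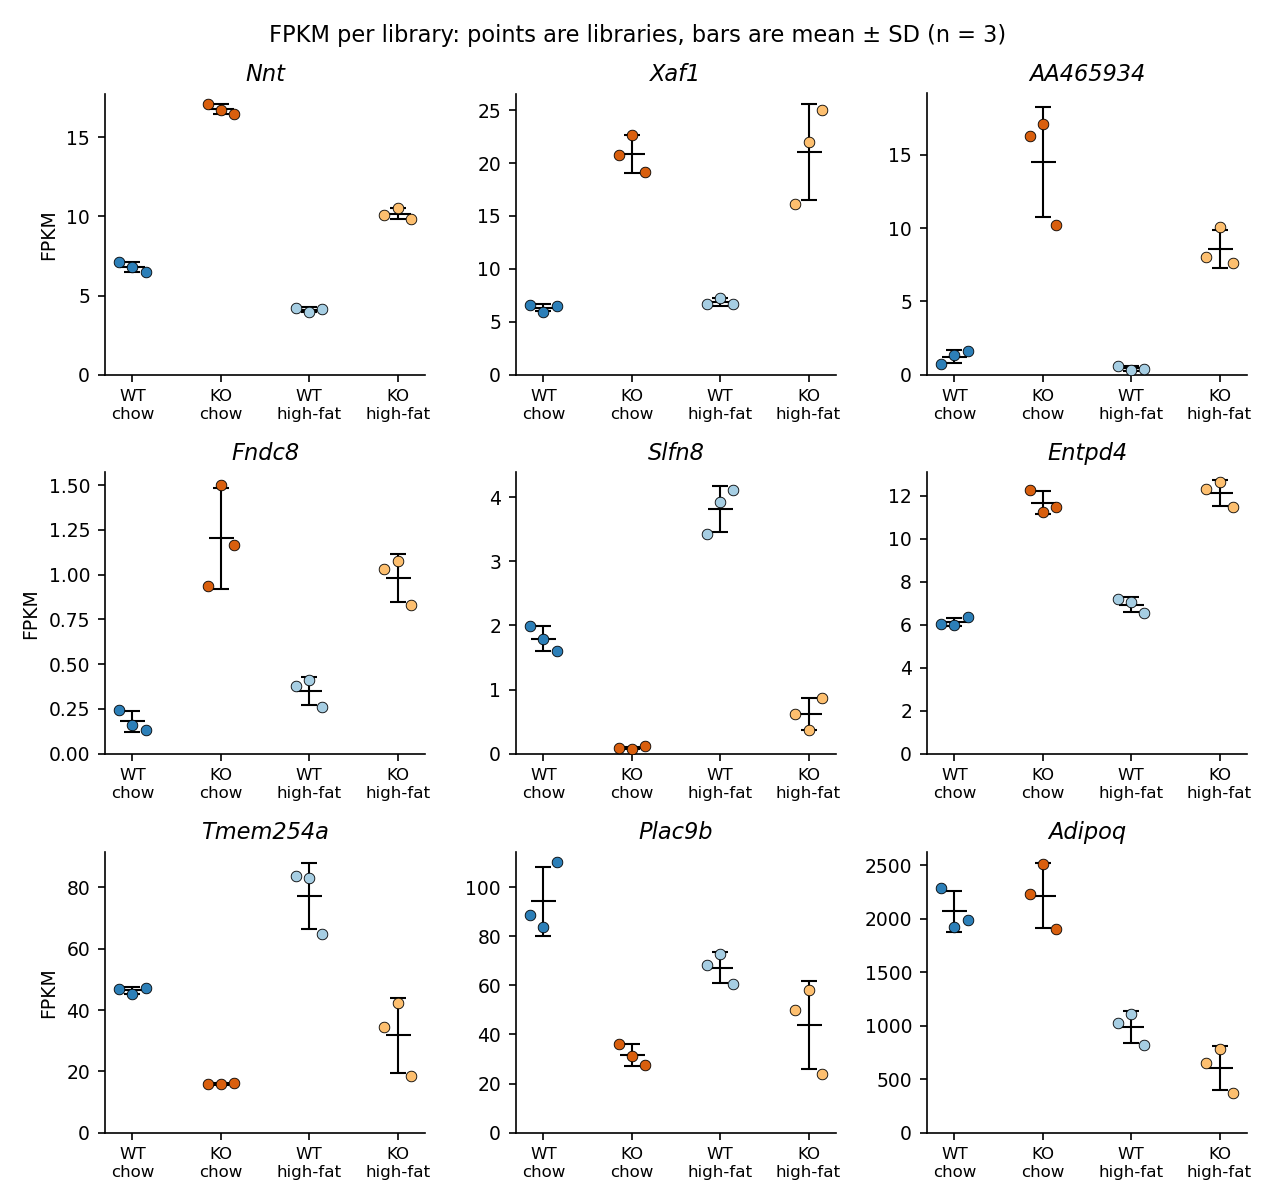
FPKM of 9 genes (y axes, from 0) in each library of the 4 groups (x axes), with the mean and SD over 3 libraries. Nnt, Xaf1, AA465934, Fndc8 and Entpd4 are higher and Slfn8 lower in KO on either diet, Tmem254a and Plac9b are also lower in KO without overlap on either diet, and Adipoq overlaps between genotypes on chow.

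The next 12 genes by p had adjusted p-values from 0.0589 to 0.0785 in limma. On HFD 8 of them had the same sign, 6 were called, 5 of these with the same sign, and for 4 the interaction was called. The 5 were Mrps23, Tmem254a, Tmem254b, Tmem254c and Gm16867. The Tmem254 rows among them cannot be told apart, and Gm16867 was tested only because of KO libraries, where it is high. The 12 genes were chosen for a low p on chow, and the interaction subtracts that same chow difference. The choice is therefore not independent of the interaction. Cpe, carboxypeptidase E, which trims peptide hormones, was at 31.6, 28.8 and 32.0 FPKM in WT and 22.3, 20.1 and 21.4 FPKM in KO on chow, and higher in KO on HFD. Tmem158 was at 2.69, 2.34 and 3.02 FPKM in WT and 1.23, 1.16 and 0.906 FPKM in KO on chow, with WT and KO overlapping on HFD. Neither was called on chow.

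Genes that miR-10a could target directly had the same median difference as genes without a site. Sites were searched in the longest annotated 3′ UTR of 12611 of the 12747 tested protein-coding genes (98.9%), as ACAGGGT (7mer-m8) or ACAGGGTA (8mer), the latter containing the former, on the transcript strand alone. The 1824 genes with a site had a median difference of -0.06, and so had the 10787 genes without one, the difference between these medians being -0.003. Among genes with a site 7 were higher (0.384%) and 73 lower (4.0%) at an unadjusted p below 0.05, against 0.630% and 4.29% of genes without, and none was called. For the 282 genes with an 8mer the median was -0.06. Taken per KO library the site medians lay -0.013, -0.031 and 0.038 from those without. The 3′ UTRs with a site are longer, with a median of 2376.5 against 979 bases. The level of miR-10a, and of miR-10b with the same seed, in this fat was not measured.

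No reported target of miR-10 was called. Of 30 on the list 24 were tested, 5 lay above 0, and their median was -0.08 against -0.05 over all genes. Sites are shown for 3 of them, with the seed match in capitals, from GENCODE M21 transcripts.
Map3k7: gctccaatgtaaagACAGGGTAttaa
Klf11: tttgtagaaatgtgACAGGGTActaa
Bcl6: taattactccggagACAGGGTttgg
Map3k7, the kinase TAK1 upstream of NF-kB, was at 12.0, 10.9 and 9.66 FPKM in WT and 9.85, 9.44 and 11.8 FPKM in KO. Klf11, a Krüppel-like factor, was at 7.35, 7.83 and 7.15 FPKM in WT and 7.24, 5.59 and 7.05 FPKM in KO. Bcl6, a transcriptional repressor, was at 25.3, 24.95 and 11.1 FPKM in WT and 10.9, 10.3 and 15.3 FPKM in KO. The groups overlap for these 3. Over the 24 tested targets 3 were lower in KO without overlap, Gata6, Srsf1 and Gria3, and none was higher without overlap. The shares over all tested genes were 7.96% lower and 1.49% higher without overlap. Gata6, a transcription factor, was at 6.18, 5.50 and 5.75 FPKM in WT and 5.06, 5.17 and 4.36 FPKM in KO (adjusted p = 0.908 in limma).

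The lists of adipocyte identity, triglyceride storage, fatty acid oxidation and nuclear oxidative phosphorylation had medians close to that of all genes. Of 20 adipocyte identity genes none was called and their median difference was 0.01. Adipoq, which encodes adiponectin, was at 2291, 1928 and 1994 FPKM in WT and 2229, 2517 and 1905 FPKM in KO. Lep, which encodes leptin, was at 378, 192 and 267 FPKM in WT and 224, 211 and 388 FPKM in KO. Triglyceride storage and lipolysis (20 genes, median -0.02), fatty acid oxidation (18, median -0.01) and nuclear genes of oxidative phosphorylation (24, median -0.01) had no called member. The 13 mitochondrially encoded genes all lay above 0, beside 4141 of 14340 over all tested genes, at a median of 0.13, and none was called. With median-centred libraries that median was 0.20, and after quantile normalization 0.03, against 0.01 over all genes under both. Ucp1, the uncoupling protein of thermogenic fat, stayed at or below 0.768 FPKM in every chow library and was not tested.

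Lipid synthesis genes had no called member. Of 17 lipogenic genes 13 lay below 0, beside 10199 of 14340 over all tested genes, at a median of -0.18, which was -0.10 without the ciliated libraries. Fasn, fatty acid synthase, was at 673, 552 and 397 FPKM in WT and 374, 281 and 502 FPKM in KO, and Acly, which makes cytosolic acetyl-CoA, at 142, 144 and 95.4 FPKM in WT and 90.4, 73.5 and 102 FPKM in KO. Of 20 cholesterol synthesis genes 18 lay below 0, at a median of -0.19. At an unadjusted p below 0.05 4 were lower, beside 4.36% of all tested genes. Fdps, farnesyl diphosphate synthase, was at 26.1, 26.3 and 22.2 FPKM in WT and 17.8, 20.8 and 18.9 FPKM in KO, without overlap (adjusted p = 0.37 in limma). Genes without overlap and lower in KO made up 7.96% of all tested genes.

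The lists with the lowest medians were those of cell types other than adipocytes. In bulk tissue fewer cells of a type and less RNA per cell cannot be told apart. Of 9 tested mast cell genes all lay below 0, at a median of -0.40, 5 had an unadjusted p below 0.05 and none was called. Among all 14340 tested genes 10199 lay below 0, and 4.36% were lower at that p. The summed mast cell list was at 45.5 to 53.9 FPKM in WT and 22.7 to 40.9 FPKM in KO, and its median without the ciliated libraries was -0.72. That median rests on WT 1 as its only WT library, the highest of the WT libraries at 53.9 FPKM. Tpsb2, a mast cell tryptase, was at 13.7, 9.08 and 10.9 FPKM in WT and 6.83, 4.32 and 4.19 FPKM in KO (adjusted p = 0.116 in limma). Mcpt4, a chymase, was at 14.4, 13.3 and 10.8 FPKM in WT and 9.68, 5.69 and 5.4 FPKM in KO (adjusted p = 0.362 in limma).

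Smooth muscle and pericyte genes had a median of -0.43, with 5 of 10 lower at an unadjusted p below 0.05, beside 4.36% of all tested genes. Acta2, smooth muscle actin, was at 71.4, 57.1 and 72.5 FPKM in WT and 47.4, 34.2 and 56.9 FPKM in KO, while Rgs5, a pericyte marker, overlapped at 104, 94.8 and 107 FPKM in WT and 85.5, 99.0 and 127 FPKM in KO. Mesothelial genes had a median of -0.41, but their sum was highest in KO 2 at 238 FPKM and 56.3 and 77.5 FPKM in KO 3 and 4, against 129 to 183 FPKM in WT. Without the ciliated libraries the mesothelial median was -0.94. The highest sums were thus in KO 2 and WT 2, both ciliated, and the part of mesothelium in the differences of other lists was not tested.

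No gene of the macrophage, complement or matrix lists was called. Of 16 macrophage genes 12 lay below 0, as did 10199 of all 14340 tested genes, at a median of -0.28, and 0 had an unadjusted p below 0.05. The median was -0.58 without the ciliated libraries. Every median given without them has WT 1 as its only WT library on chow. The macrophage sum of WT 1 was 838 FPKM, above 651 FPKM in WT 2 and 686 FPKM in WT 4. Adgre1, which encodes the macrophage marker F4/80, was at 11.4, 7.63 and 8.10 FPKM in WT and 8.04, 5.15 and 7.64 FPKM in KO. Complement genes had a median of -0.24, and of -0.51 without the ciliated libraries. At an unadjusted p below 0.05 4 of 16 were lower, beside 4.36% of all tested genes. Cd55, which shields cells from complement, was at 15.8, 12.5 and 13.9 FPKM in WT and 11.1, 7.93 and 10.9 FPKM in KO (adjusted p = 0.421 in limma). Of 30 matrix and fibrosis genes 5 were lower at an unadjusted p below 0.05 and the median was -0.03, which was -0.22 without the ciliated libraries. Timp2, an inhibitor of metalloproteinases, was at 136, 116 and 130 FPKM in WT and 105, 75.8 and 81.9 FPKM in KO, while Col1a1, a chain of type I collagen, overlapped at 42.3, 36.1 and 37.9 FPKM in WT and 43.9, 29.9 and 34.5 FPKM in KO.

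All 19 immediate early genes, which are switched on within minutes of a stimulus, lay below 0, at a median of -0.28, and 8 had an unadjusted p below 0.05. Of all 14340 tested genes 10199 lay below 0, and 4.36% were lower at that p. With median-centred libraries the median of the immediate early genes was -0.21. Nr4a1, a nuclear receptor of this class, was at 5.23, 7.91 and 8.17 FPKM in WT and 3.88, 3.10 and 3.90 FPKM in KO (adjusted p = 0.314 in limma). Fos overlapped, at 12.4, 32.1 and 22.7 FPKM in WT and 4.90, 20.2 and 6.39 FPKM in KO. None of these genes was called.

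**Figure D5:**
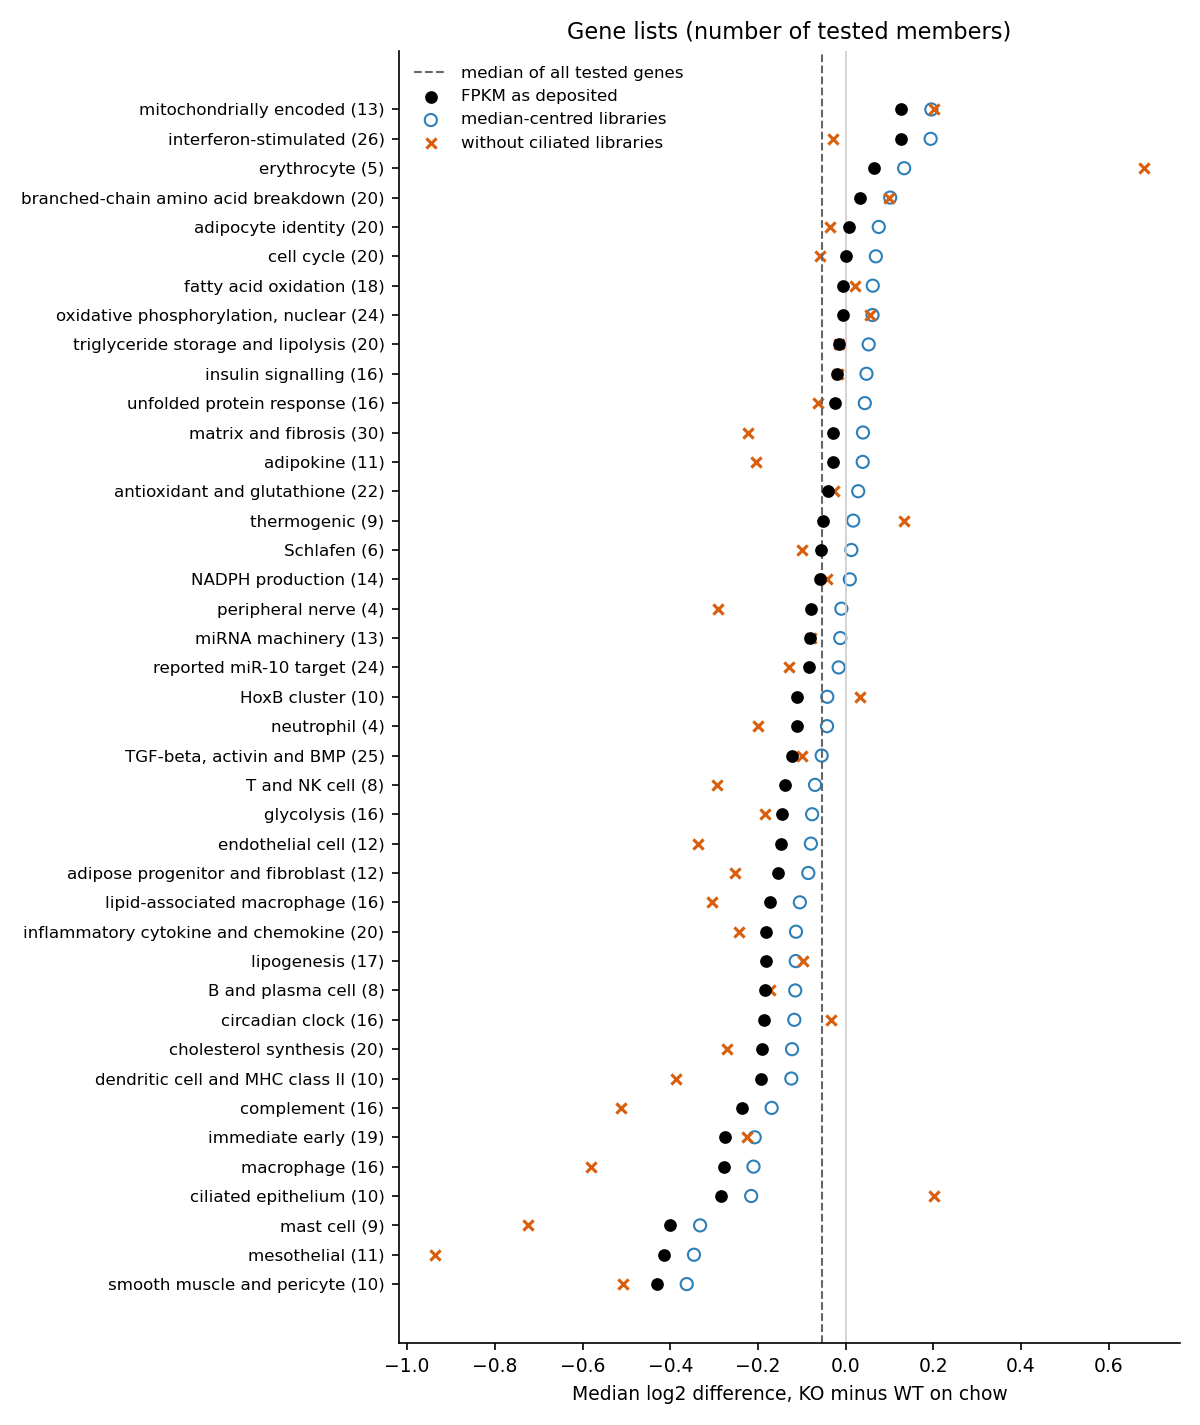
Median log2 difference between KO and WT on chow (x axis) of each gene list with at least 3 tested members (y axis, number tested in brackets), as deposited (black), with median-centred libraries (open blue) and without the ciliated libraries (orange crosses). Smooth muscle, mesothelial and mast cell lists have the lowest medians as deposited, at -0.43, -0.41 and -0.40, and the dashed line marks the median of all tested genes at -0.05.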

How the data were processed

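Per the labels' protocols, RNA came from TRIzol extracts and went into TruSeq Stranded mRNA LT libraries. HISAT2 2.1.0, Trimmomatic, StringTie 1.3.4d, bcl2fastq 2.20.0 and DESeq2 are listed with the build mm10, per the submitters' processing notes, without the role of each. The authors deposited FPKM per gene and library, per the file headers, for 30268 NCBI gene IDs, of which 30196 were matched to a symbol. Without counts the depth is unknown and no counting error is given. FPKM is relative within a library.

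Columns were assigned to groups by the genotype and diet in their names, since the numbers in the headers differ from those of the sample titles, and 0 value columns were left out. Genes at 1 FPKM or more in at least 3 of the 12 libraries (14340) were tested on log2(FPKM + 1) with limma 3.58.1 in R 4.3.3, with 4 group means, empirical Bayes with a mean-variance trend and Benjamini-Hochberg adjustment. Here p-values measure the spread between mice. The procedure was tested on simulated data.

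The compared groups, 44 gene lists and tests were chosen with earlier results of these data known, and lists are described without a test. Genes are named if called, among the next 12 by p, the most abundant or lowest in p of a list, or between called neighbours on chromosome 11, with 13 genes always looked up. A gene picked by this rule is not reported here. Others, such as Fgf10, Paip1, Anxa11, Plac9a, Plac9b, Irf7, Ifit1, Gria3 and Fos, were chosen after their values were seen. Alternatives covered normalization, pseudocount, filter, array weights, the trend, the libraries fitted, and leaving out each chow library or the ciliated ones.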

Additional observations from a re-analysis of the deposited data

Results flagged for a closer look

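For 8 genes named here the genotype difference differed between the diets in the interaction term of the limma fit. Each estimate was below 0 on chow and above 0 on HFD. None was called on chow. On HFD Tpsb2, Mcpt4 and Cpe were called. Timp2, Tgfb2, LOC115487678, Slco2a1 and Swap70 were called on neither diet, with adjusted p-values on HFD from 0.0779 to 0.25 in limma. For these the opposite signs are those of estimates alone. Over all tested genes the interaction was called for 39 (0.272%). The interaction is the HFD difference minus the chow difference, on the log2(FPKM + 1) scale. These 8 genes were named at least in part for a low p on chow, so their choice is not independent of the interaction.

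In mast cell genes it was 2.30 for Tpsb2 (-1.01 on chow and 1.29 on HFD, adjusted p = 0.0248 in limma) and 2.08 for Mcpt4 (-0.84 and 1.24, adjusted p = 0.0328 in limma). Tpsb2 was at 16.5, 18.3 and 12.0 FPKM in WT and 38.9, 40.0 and 37.7 FPKM in KO on HFD.

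In genes of matrix and growth factor signalling it was 0.91 for Timp2 (-0.55 and 0.36, adjusted p = 0.0449 in limma) and 0.81 for Tgfb2 (-0.46 and 0.35, adjusted p = 0.0449 in limma). Tgfb2, a transforming growth factor, was at 1.76, 1.90 and 1.89 FPKM in WT and 1.35, 0.937 and 0.971 FPKM in KO on chow.

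In the other genes it was 1.43 for LOC115487678, a small nucleolar RNA (-1.01 and 0.42, adjusted p = 0.0446 in limma), 1.16 for Cpe (-0.52 and 0.65, adjusted p = 0.0204 in limma), 0.97 for Slco2a1, a prostaglandin transporter (-0.74 and 0.23, adjusted p = 0.0495 in limma), and 0.46 for Swap70 (-0.29 and 0.17, adjusted p = 0.0355 in limma).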

How the results depend on the processing

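The count of 7 called genes became 16 with array weights, 14 with no filter on low values, 11 with only the chow libraries in the fit and 4 without the ciliated libraries, which leaves 1 WT and 2 KO libraries on chow. The count higher in KO moved from 6 to 3 without the ciliated libraries. The count lower in KO moved from 1 to 8 with array weights, 5 with no filter, 6 with only the chow libraries, and 2 without the trend or with a pseudocount of 0.1 FPKM. Leaving out each chow library in turn gave 6 to 15 called genes, 5 to 7 higher and 1 to 9 lower, with 15 without KO_NCD 2 and 13 without KO_NCD 3. Nnt and AA465934 stayed called in all 17 alternatives. Entpd4, Entpd4b, Xaf1 and Slfn8 did in 16 of 17, all lost without the ciliated libraries, with adjusted p-values in limma of 0.0804, 0.0804, 0.151 and 0.0838 and log2 differences there of 0.82, 0.82, 1.53 and -1.45. Fndc8 did in 8 of 16, up to an adjusted p of 0.196. The lone WT library is assumed to vary like the other groups. Unknown depth limits the low genes, Fndc8 and Slfn8 among them. No paired analysis was possible because the labels do not pair WT mice with KO mice.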
